A study of Mus musculus with 25 samples.

Results

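The comparison set 9 liver arrays carrying a PIK3CA mutation against 9 empty-vector liver arrays, 18 of the 25 arrays of the series. Mice of C57BL/6J x 129Sv background had been injected with PIK3CA H1047R (4 arrays) or PIK3CA E545K (5 arrays), and their livers, called preneoplastic in the labels, were taken at an age of 3 months. The controls were called normal liver and came from mice injected with an empty vector, 4 arrays of 3 months and 5 of 6 months. All 9 mutant arrays were thus of 3 months, while the pooled controls held both ages. Arrays were chosen from the labels alone, and the larger groups were meant to look for a small effect shared by both mutations. The study's description names 5 controls of 3 months, and 4 were used here. It gives the controls of the tumour comparison an age of 5 months and speaks elsewhere of controls of 6 months, which is the age in the labels of all 5 older controls. The sources used here do not name the vector, its promoter, the route of injection, the sex of the mice or the share of liver cells that took up the vector. The labels do not say that each array was a separate animal, so the p-values speak only for the spread among these samples. RNA came from whole liver tissue, where fewer cells of a type and less RNA per cell cannot be told apart.

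The gene PIK3CA codes for p110 alpha, the catalytic part of PI3K, the lipid kinase that insulin and growth factor receptors switch on. Its product PIP3 activates the kinase AKT, which drives mTORC1 and growth, raises lipid synthesis through SREBP1c, and keeps the transcription factor FoxO1 out of the nucleus, so that FoxO1 targets such as Igfbp1 and Irs2 are turned down. H1047R lies in the kinase domain and E545K in the helical domain, and both raise the activity of the enzyme. In liver this pathway carries the insulin signal that stops glucose output and starts fat synthesis.

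Values are log2 of normalized array signals, and a difference is the mean of the mutant arrays minus the mean of the control arrays on that scale, given ± its standard error from limma with 9 arrays in each arm unless stated otherwise. The 18 arrays detected between 14536 and 16742 of 45281 probes each, and each gene was read by its brightest detected probe, which left 10663 genes. The number of arrays limits the precision, and genes near background are further limited by their signal over background. Hepatocyte markers were present throughout, with 22 of 23 detected on all 18 arrays, among them Alb (albumin). Acinar markers of the pancreas were mostly missing, with 11 of 15 detected on no array.

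Several arrays stood apart through transcripts that hepatocytes do not make. Skeletal muscle markers averaged 9.60 on H1047R array 2 and 10.39 on 3-month control array 4, were also over a log2 signal of 6 on H1047R array 4 (6.03), 3-month controls 2 (7.15) and 3 (7.25) and 6-month control 4 (7.002), and lay between 4.69 and 5.19 on the other arrays. H1047R array 3 and E545K array 4 held transcripts of the adrenal gland and of fat. On them Cyp11b1, the last enzyme of corticosterone synthesis, read 9.67 and 9.29, against at most 4.78 on the other 16 arrays. Chgb (chromogranin B), a granule protein of the adrenal medulla, read 8.44 and 7.93 there, against at most 4.76 elsewhere. Adipoq (adiponectin), a fat cell hormone, read 8.60 and 8.78 there, against at most 5.95 elsewhere. Of 13 adrenal cortex genes 6, of 6 medulla genes 5 and of 9 fat genes 6 were higher on both of these arrays than on every other one; Nr5a1, Retn, Plin1 and Fabp4 were not detected on any array. These lists were drawn up after the values were seen. Values without the muscle arrays, without the adrenal and fat arrays or without the 3 controls of highest Saa1 described below stand beside many of the differences and list medians that moved; the part of the other tissues was not tested beyond that.

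No gene passed the test between the mutant and the control arrays. At an adjusted p under 0.05, limma called 0 of 10663 genes (0% of all tested), the lowest adjusted p being 0.724. At an unadjusted p under 0.05 there were 631 genes (5.92%), of which 397 were higher on the mutant arrays (3.72%) and 234 lower (2.19%). An exact rank-sum permutation test for each gene also called 0, with 539 genes at an unadjusted p under 0.05 and a lowest adjusted p of 0.585. Of all genes, 5701 were higher on the mutant arrays by any amount (53.5%) and 4962 lower (46.5%). No gene separated the 9 mutant arrays from the 9 control arrays without overlap (0%). Without the 6 arrays of high muscle markers, limma called 0 genes (754 at an unadjusted p under 0.05, lowest adjusted p 0.452). Without the 2 arrays of adrenal and fat transcripts it also called 0 (720, lowest adjusted p 0.486), as it did without the 3 control arrays whose Saa1 was over a log2 signal of 12 (471, lowest adjusted p 0.0613). In the plot of differences against p the cloud is centred near 0, and the genes of smallest p differ by less than a factor of 2, apart from the RNA Snhg11.

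**Figure D1:**
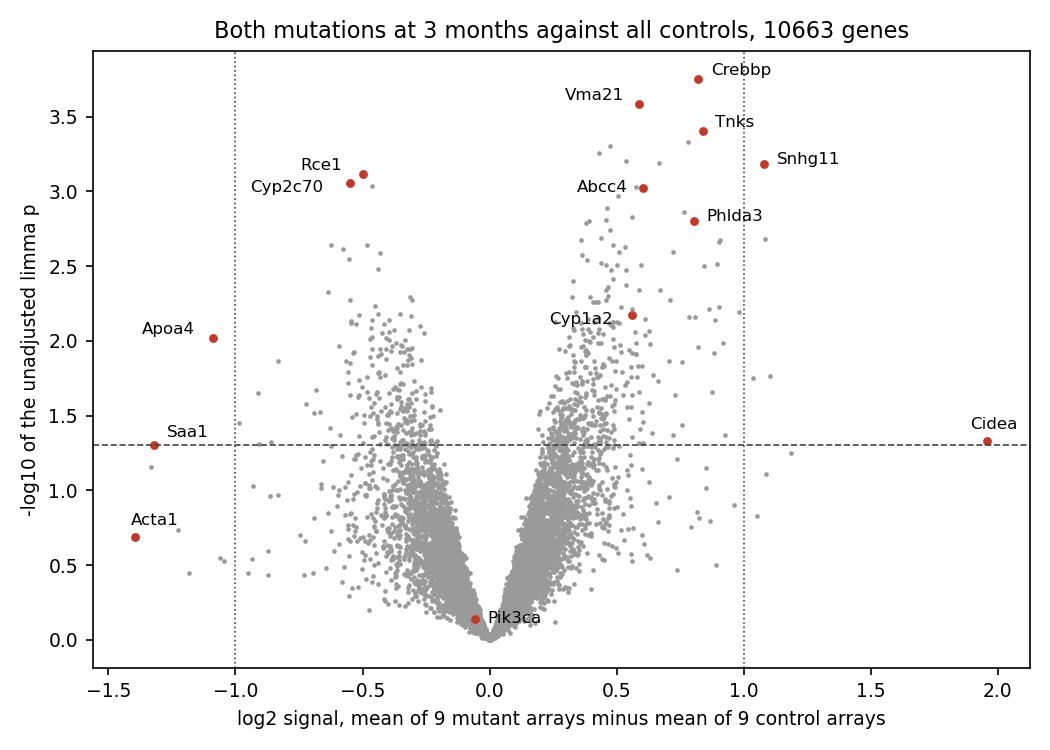
Each point is 1 of 10663 genes; the horizontal axis is the log2 difference between the mean of 9 mutant and the mean of 9 control arrays, and the vertical axis is -log10 of the unadjusted limma p. The dashed line is an unadjusted p of 0.05 and the dotted lines are 2-fold differences; Crebbp has the smallest p, 0.000177, and Cidea the largest difference, 1.96, and neither passes after adjustment.

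The sizes that the arrays leave room for can be read from the intervals. The 95% confidence interval of the difference lay within 1.5-fold on both sides for 7830 genes (73.4%) and within 2-fold for 10265 genes (96.3%), which left 398 genes for which a 2-fold difference lies inside the interval or at its edge. The median size of a difference was 0.12 and the median standard error 0.156. Differences of at least 1.5-fold in either direction were measured for 124 genes (1.16%), and of at least 2-fold for 17 genes (0.159%), 8 higher and 9 lower, and the interval excluded 0 for 7 of them. Of the 9 lower genes 5 were skeletal muscle markers, and the others were Apoa4, Saa1, Saa2 and the muscle subunit gene Cox6a2. Of the 8 higher genes, named here after their values were seen, Cidea and G0s2 act at lipid droplets, Cfd is the complement factor adipsin, Abcb1b a drug efflux pump, Akr1b7 an aldose reductase relative of the adrenal cortex, Rarres1 a retinoic acid response gene, Arrdc3 an arrestin-like adaptor, and Snhg11 a host transcript of small nucleolar RNAs.

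The control ages were also compared with each other, and each with the mutant arrays. The controls of 6 months and of 3 months gave 0 called genes (0%) with a lowest adjusted p of 0.108, but 1548 genes at an unadjusted p under 0.05 (14.5%), 614 higher at 6 months (5.76%) and 934 lower (8.76%), and 202 differences of at least 2-fold (1.89%). More 3-month than 6-month controls had high muscle markers, and the 15 skeletal muscle markers had a median difference of -2.65 between the ages. Their share of the 202 was not counted. Set against the 3-month controls alone, in a fit with 4 group means, the mutant arrays gave 0 called genes (0%) and 348 at an unadjusted p under 0.05 (3.26%; 167 higher, 1.57%, and 181 lower, 1.7%), and the lowest adjusted p was 0.999. Against the 6-month controls the same fit gave 0 called (0%), 1666 at an unadjusted p under 0.05 (15.6%; 1007 higher, 9.44%, and 659 lower, 6.18%) and a lowest adjusted p of 0.0891. The controls of 6 months varied most among themselves: the median SD over genes was 0.387 on their 5 arrays, 0.254 in the 3-month controls, 0.239 for H1047R and 0.286 for E545K. The 2 comparisons with a single control age share the 9 mutant arrays.

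**Figure D2:**
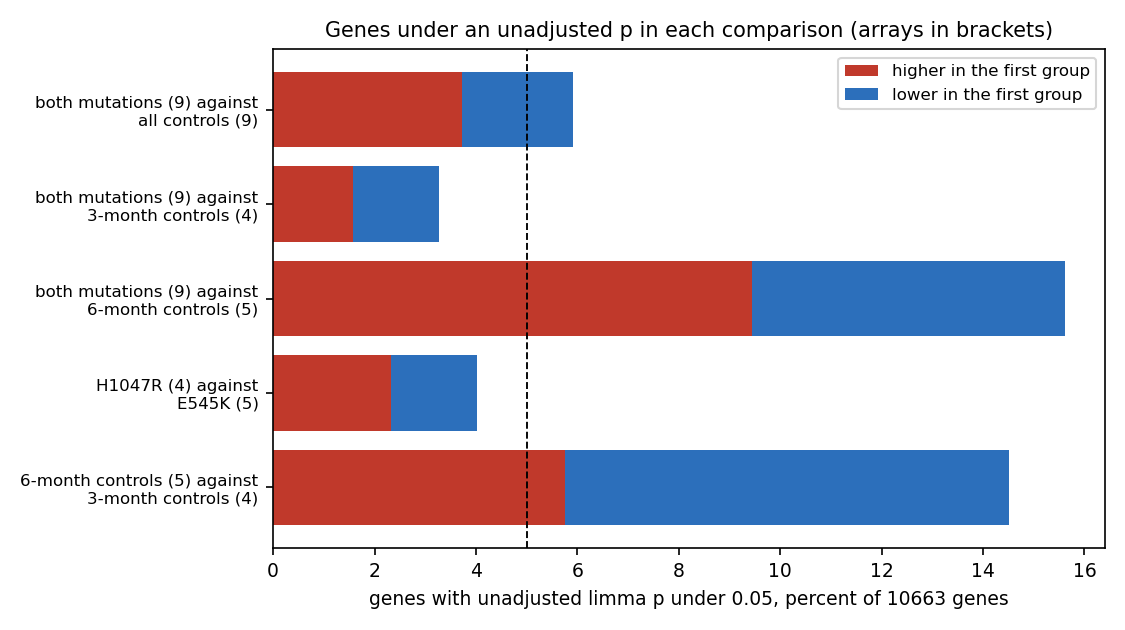
Bars give the share of 10663 genes with an unadjusted limma p under 0.05 in 5 comparisons, split by direction, with the number of arrays in brackets; the dashed line is a share equal to the p threshold. The pooled comparison reaches 5.92% and the mutant arrays against 3-month controls 3.26%. The widest bars are those of the 6-month against the 3-month controls, 14.5%, and of the mutant arrays against the 6-month controls, 15.6%.

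None of the genes of smallest p on the higher side passed, and they are named one by one, not as a group. Crebbp, the histone acetyltransferase CBP, read 6.31, 7.12, 6.39 and 6.69 on the H1047R arrays, 6.74, 6.55, 6.53, 6.08 and 6.60 on the E545K arrays, 5.78, 6.16, 5.64 and 6.43 on the 3-month controls and 5.98, 5.58, 5.07, 5.99 and 4.97 on the 6-month controls. Thus 6 of 9 mutant arrays lay above the highest control, the groups overlapped, and the difference was 0.82 ± 0.18 (limma adjusted p = 0.724). A second Crebbp probe gave 0.92. Against the 3-month controls alone the difference of Crebbp was 0.55, and against those of 6 months 1.04. Ino80d, a subunit of the INO80 chromatin remodeller, was higher by 0.78 ± 0.19, with 7 mutant arrays above every control. Nsd1, a methyltransferase for lysine 36 of histone H3, was higher by 0.58 ± 0.15, and was detected on 6 of the 9 control arrays. Tnks (tankyrase), which attaches ADP-ribose chains to proteins such as axin, was higher by 0.84 ± 0.20.

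Vma21 helps to assemble the proton pump of lysosomes and was higher by 0.59 ± 0.13, although a second probe of the gene gave -0.19. Golga4, a tethering protein of the Golgi, was higher by 0.54 ± 0.13, and Tbc1d20, which switches off Rab GTPases, by 0.67 ± 0.17. Plpp6, a phosphatase of isoprenoid diphosphates, was higher by 0.43 ± 0.11, and 2 other probes gave 0.10 and 0.23. Amn, the membrane anchor of the cubilin receptor, was detected on 7 mutant arrays and on no control array, and lay at least 1.13-fold higher on the mutant arrays when the controls are set at the lowest detected signal. That bound is the mutant mean over the control arrays' mean of the lowest signal detected on each array or the probe's own, whichever was higher. Snhg11 read 9.23, 9.52, 9.73 and 9.72 on the H1047R arrays, 9.64, 9.995, 9.77, 8.27 and 9.87 on the E545K arrays, 8.38, 8.14, 9.13 and 9.72 on the 3-month controls and 7.47, 8.26, 7.62, 8.98 and 8.34 on the 6-month controls. All mutant arrays but E545K array 4 were therefore at 9.23 or more, as was 1 control, and the difference of 1.08 ± 0.27 had an adjusted p of 0.724 in limma.

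On the lower side Cyp2c70, the mouse enzyme that makes muricholic acids from chenodeoxycholic acid, ran from 12.35 to 13.08 on the mutant arrays, with a median of 12.68, and from 12.74 to 13.64 on the controls, with a median of 13.35. All 9 mutant arrays lay below the control median and 5 below the lowest control, and the difference was -0.55 ± 0.14 (limma adjusted p = 0.724). Rce1, the protease that trims prenylated proteins such as Ras, was lower by 0.50 (difference -0.50 ± 0.13). Mars2, the mitochondrial methionyl-tRNA synthetase, differed by -0.46 ± 0.12, and Hspa9, the mitochondrial HSP70 chaperone, by -0.48 ± 0.14. Second probes of Mars2 and Hspa9 gave smaller differences of -0.10 and -0.29. The other genes of smallest p on this side were Cldn14 (a tight junction claudin), Crybg3, Xkr7, Kpna2 (an importin), Lonrf3 and Crem (a cAMP-responsive transcription factor), with differences between -0.43 and -0.64. Without the 6 arrays of high muscle markers the difference of Kpna2 was -0.84 instead of -0.55. Other probes gave 0.09 for Xkr7, -0.15 for Lonrf3 and -0.21 for Kpna2, while those of Crem gave -0.50 and -0.64.

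**Figure D3:**
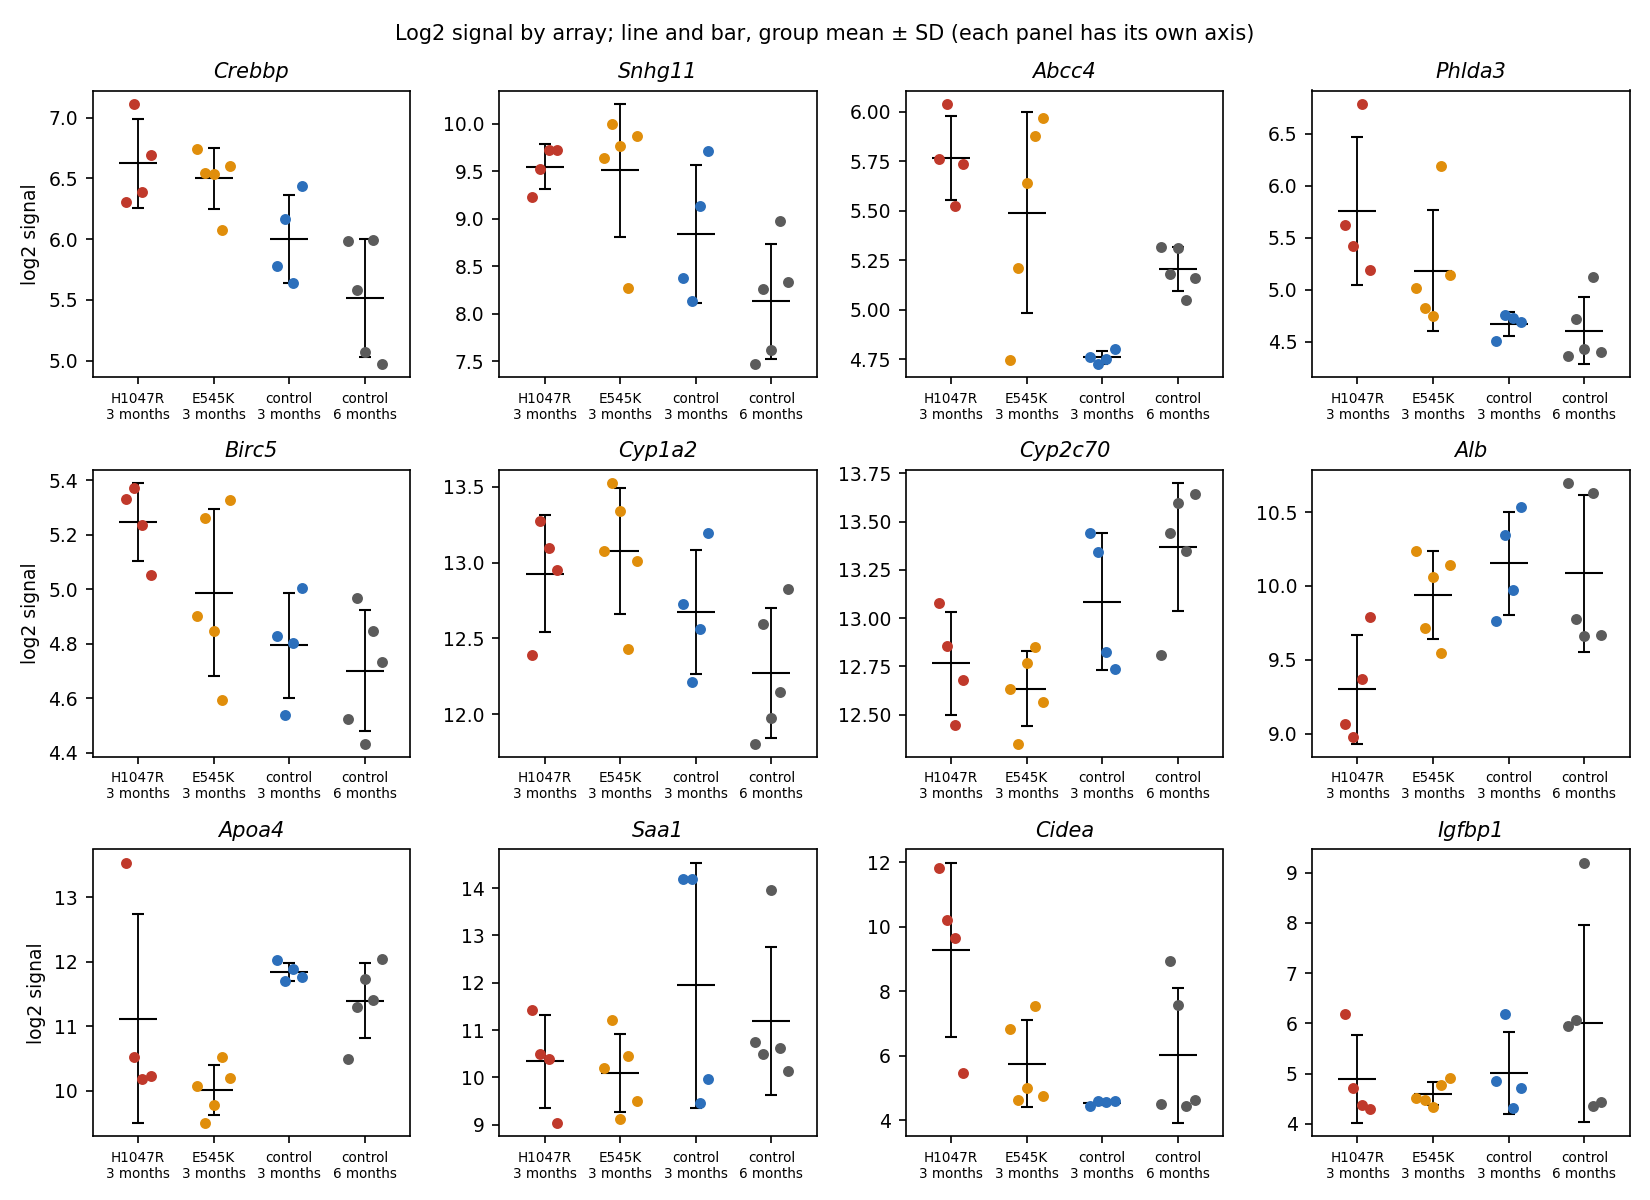
Points are single arrays in 4 groups (4, 5, 4 and 5 arrays), and the line and bar are the group mean ± SD of the log2 signal; each panel has its own axis, which does not start at 0. Crebbp, Abcc4 and Phlda3 tend to sit higher and Cyp2c70 and Apoa4 lower on the mutant arrays, with overlap in every panel, while Cidea, Saa1 and Igfbp1 are carried by a few arrays. Phlda3 was detected on 8 of 18 arrays.

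Members of the PI3K pathway itself had differences centred near 0. Of 35 listed PI3K, AKT and mTOR genes 29 were tested, 18 were higher and 11 lower, none passed, and their median difference was 0.04, beside 0.01 for all genes tested. Pik3ca read 4.76, 4.89, 4.65 and 4.53 on the H1047R arrays, 4.87, 4.34, 4.67, 5.47 and 4.43 on the E545K arrays, 4.34, 4.53, 4.77 and 4.46 on the 3-month controls and 4.94, 5.35, 5.28, 4.73 and 4.72 on the 6-month controls. These values are near the lower end of the scale, since the probe was detected on 4 of 9 mutant and 4 of 9 control arrays, and the difference was -0.06 ± 0.16 (limma adjusted p = 0.969). Whether the probe reads the injected sequence cannot be seen from the sources used here, so it does not check the labels. Trib3, a pseudokinase that binds AKT and is turned on by amino acid stress, was higher by 0.76 ± 0.34 (0.42 without the 3 arrays of highest Saa1), and the p70 S6 kinase gene Rps6kb1 was lower, with a difference of -0.28 ± 0.14 and detection on 5 of 18 arrays. For 26 of the 29 genes the interval lay within 2-fold.

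Of 15 tested genes under FoxO1 or of glucose synthesis 8 were higher and 7 lower, with a median difference of 0.00 and none called. Without the arrays of high muscle markers 5 were higher and 10 lower (median -0.14), and without those of highest Saa1 3 and 12 (median -0.13). Igfbp1, the insulin-repressed binding protein of IGF, read 6.18, 4.72, 4.38 and 4.29 on the H1047R arrays, 4.52, 4.47, 4.34, 4.77 and 4.92 on the E545K arrays, 4.85, 6.18, 4.32 and 4.71 on the 3-month controls and 5.94, 6.07, 9.20, 4.36 and 4.44 on the 6-month controls. It was thus low or undetected on most arrays of both arms, and the difference of -0.83 ± 0.49 was -0.24 without the 3 arrays of highest Saa1, which include the 6-month control at 9.20, and -1.30 without the 6 arrays of high muscle markers. Irs2, the insulin receptor substrate, ran from 7.88 to 9.73 on the mutant arrays (median 8.27) and from 8.38 to 10.11 on the controls (median 9.11). Of the mutant arrays 5 lay below every control, and the difference was -0.48 ± 0.27 (limma adjusted p = 0.869), or -0.23 without the 3 arrays of highest Saa1. Ppargc1a, a coactivator of glucose synthesis genes, differed by 0.28 ± 0.15 and Fbp1, fructose bisphosphatase, by -0.38 ± 0.24. Without the arrays of high muscle markers these were 0.44 and -0.63.

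The lipid genes were spread in both directions. In de novo lipogenesis 17 of 23 tested genes were higher and 6 lower, with a median of 0.07 that was 0.30 against the 3-month controls and -0.12 against those of 6 months, and -0.02 both without the arrays of high muscle markers and without those of highest Saa1. Fads2, a fatty acid desaturase, was lower on the mutant arrays (difference -0.33 ± 0.14), and Mlxipl, which encodes the sugar sensor ChREBP, differed by 0.30 ± 0.21. Cholesterol synthesis and uptake had 3 genes higher and 21 lower of 24, with a median of -0.15, and none passed. That median was -0.27 without the arrays of high muscle markers and -0.03 without those of highest Saa1. Against the controls of 3 and 6 months it was -0.05 and -0.19. In that list Idi1, an isomerase of the isoprenoid units, differed by -0.55 ± 0.22, and by -0.22 without the arrays of highest Saa1.

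Apoa4, an apolipoprotein of triglyceride-rich particles that the fatty liver makes, read 13.54, 10.52, 10.18 and 10.23 on the H1047R arrays, 10.07, 9.50, 9.78, 10.52 and 10.20 on the E545K arrays, 12.03, 11.70, 11.88 and 11.77 on the 3-month controls and 10.49, 11.30, 11.74, 11.40 and 12.04 on the 6-month controls. All mutant arrays but H1047R array 1 lay at or below 10.52, all controls but 1 of 6 months at or above 11.30, and H1047R array 1 had the highest value of all. The difference was -1.09 ± 0.38 (limma adjusted p = 0.747), and 2 further probes of Apoa4 gave -1.23 and -1.21. Without H1047R array 1 the difference was -1.47 with an adjusted p of 0.0035, the only gene called in that fit. With E545K alone against all controls it was -1.58 (adjusted p = 0.0473), again the only gene called. In no other setting was Apoa4 called.

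Lipid droplet genes had a higher median (0.10; 13 of 17 higher, 4 lower, none called). Cidea, a droplet fusion protein that appears in fatty liver, read 11.82, 10.22, 9.65 and 5.46 on the H1047R arrays, 6.84, 4.62, 5.00, 7.55 and 4.74 on the E545K arrays, 4.44, 4.60, 4.56 and 4.60 on the 3-month controls and 4.50, 8.93, 7.58, 4.44 and 4.63 on the 6-month controls. It was therefore high on 3 H1047R arrays and at intermediate levels on a few arrays of E545K and of the 6-month controls. Its difference of 1.96 ± 0.93 was the largest of all genes, with a 95% interval from 0.03 to 3.89 (limma adjusted p = 0.836), and without the 6 arrays of high muscle markers it was 1.16. Cidec, its relative, ran from 5.13 to 8.96 on the mutant arrays and from 4.36 to 8.59 on the controls, a difference of 0.96 that was 0.46 without the muscle arrays and 0.64 without the adrenal and fat arrays. G0s2, the inhibitor of the lipase ATGL, differed by 1.09 ± 0.59, and without the 3 arrays of highest Saa1 by 0.17.

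Oxidation of fatty acids had 11 genes higher and 15 lower of 26, with a median of -0.04 and none called. That median was 0.16 against the 3-month and -0.22 against the 6-month controls. It was -0.13 without the arrays of high muscle markers and -0.18 without those of highest Saa1. Ppara, the receptor that turns these genes on, was higher by 0.45 ± 0.17, and its target Acaa1a, a peroxisomal thiolase, by 0.28 ± 0.13. Without the arrays of high muscle markers the difference of Ppara was 0.26, and it was also 0.26 without those of highest Saa1. In glycolysis and the pentose phosphate pathway 14 of 24 genes were higher, with a median of 0.03. Tkt (transketolase, 0.39 ± 0.13), Taldo1 (transaldolase, 0.28 ± 0.12) and Pgd (6-phosphogluconate dehydrogenase, 0.30 ± 0.14) of the pentose phosphate pathway were higher, while Ldha (lactate dehydrogenase) was lower at -0.51 ± 0.17. None of these 4 passed, and without the arrays of high muscle markers Taldo1 differed by 0.18 and Ldha by -0.78.

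Among proliferation genes 12 of 20 were higher and 8 lower, with a median of 0.04. The 2 mutations were not alike here, with a median difference of 0.23 for H1047R minus E545K. The mean over these genes ran from 5.64 to 5.78 on the H1047R arrays, from 5.475 to 5.63 on the E545K arrays and from 5.247 to 5.629 on the controls. Cdc20, the activator of the anaphase-promoting complex, ran from 5.08 to 6.20 on the mutant arrays (median 5.44) and from 4.26 to 6.15 on the controls (median 4.85), a difference of 0.67 ± 0.21 (limma adjusted p = 0.747), and a second probe gave 0.19. Birc5 (survivin) differed by 0.36 ± 0.12, with 6 mutant arrays above every control at a level where 5 of 9 controls detected it. The group of D cyclins, CDK inhibitors and p53 targets had 15 of 21 higher and a median of 0.07. In it Phlda3, a p53 target that blocks AKT at the membrane, read 5.63, 5.42, 6.79 and 5.19 on the H1047R arrays, 5.02, 4.82, 4.75, 6.19 and 5.14 on the E545K arrays, 4.51, 4.76, 4.73 and 4.69 on the 3-month controls and 4.37, 4.72, 4.43, 5.12 and 4.40 on the 6-month controls. The difference was 0.80 ± 0.22 (limma adjusted p = 0.743). Phlda3 was detected on 8 of 18 arrays, and its control values, apart from the 5.12, lay at 4.76 or less, near the lower end of the scale. The highest values of Phlda3 stood on the 2 arrays with adrenal and fat transcripts, and without these it was 0.50. Ccnd2 (cyclin D2) differed by 0.38 ± 0.13, and a second probe by 0.43.

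Oncofetal and liver tumour genes had 11 of 19 higher and 8 lower, with a median of 0.09 (0.04 against the 3-month and 0.28 against the 6-month controls; 0.22 without the muscle arrays and 0.18 without those of highest Saa1). Gpc3 (glypican 3), a surface marker of hepatocellular carcinoma, ran from 4.92 to 6.66 on the mutant arrays and from 4.30 to 5.57 on the controls, a difference of 0.60 ± 0.22 that was 0.35 without the arrays with adrenal and fat transcripts. A second Gpc3 probe gave 0.32. Golm1, the Golgi protein GP73, differed by 0.42 ± 0.16 and Robo1, a guidance receptor, by 0.45 ± 0.20. Akr1c18, a steroid reductase, was detected on 6 mutant arrays and 1 control, and differed by 0.88 ± 0.35. It thus met the detection filter through the mutant arrays, and its control mean rests mostly on undetected values. Against the 3-month controls alone it differed by 0.52 ± 0.42.

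Genes of the position in the liver lobule were described by zone, and none was called. Of 20 tested genes of the pericentral zone, around the central vein, 17 were higher and 3 lower with a median of 0.21, and it was 0.17 against the 3-month and 0.19 against the 6-month controls, and 0.11 without the arrays of highest Saa1. Of 21 periportal genes, around the portal vein, 6 were higher and 15 lower with a median of -0.20, and -0.21 and -0.07 against the controls of 3 and 6 months. Without the 6 arrays of high muscle markers the periportal median was 0.02, with 12 genes higher and 9 lower, while the pericentral median was 0.21; without those of highest Saa1 the periportal median was -0.13. Cyp1a2, a drug-metabolizing P450 of the pericentral zone, ran from 12.39 to 13.53 on the mutant arrays (median 13.08) and from 11.81 to 13.20 on the controls (median 12.56), a difference of 0.56 ± 0.19 (limma adjusted p = 0.747), while a second probe gave 0.21. The Wnt pathway genes Lgr5, a receptor, and Sp5, a transcription factor, differed by 0.56 ± 0.20 and 0.73 ± 0.30, and Rhbg, an ammonia transporter, by 0.53 ± 0.21. On the periportal side Alb differed by -0.46 ± 0.20, Sdsl, a serine dehydratase relative, by -0.49 ± 0.22, Tat (tyrosine aminotransferase) by -0.39 ± 0.19 and Agxt, a glyoxylate enzyme, by -0.29 ± 0.15. Without the 6 arrays of high muscle markers the differences of Alb, Sdsl, Tat and Agxt were -0.18, -0.27, -0.20 and -0.12, and that of Rhbg was 0.35. Without the arrays of highest Saa1 the differences of Sp5, Sdsl and Agxt were 0.44, -0.25 and -0.16.

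Bile acid and drug-metabolizing genes had 18 of 25 higher and a median of 0.06 (0.15 without the muscle arrays), and none was called. Abcc4, the basolateral pump that lets bile acids out into the blood, read 5.76, 6.04, 5.52 and 5.74 on the H1047R arrays, 4.75, 5.21, 5.64, 5.88 and 5.97 on the E545K arrays, 4.76, 4.73, 4.75 and 4.80 on the 3-month controls and 5.32, 5.18, 5.31, 5.05 and 5.16 on the 6-month controls. Here 7 of 9 mutant arrays lay above every control, and the difference was 0.60 ± 0.16 (limma adjusted p = 0.724) with 0.39 left without the arrays of high muscle markers. Slc10a1, the sodium-driven uptake carrier of bile acids, differed by 0.36 ± 0.15, by 0.23 without the arrays of high muscle markers and by 0.19 without those of highest Saa1. Male-biased genes had a median of 0.01 (12 of 21 higher) and female-biased genes 0.03 (5 of 10 higher). Mup9, a male-biased major urinary protein, differed by 0.82 ± 0.29; the urinary proteins are nearly alike in sequence, and its probe may read several of them.

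Of 30 acute phase genes 23 were lower and 7 higher, with a median of -0.08, and none passed. Without the 3 arrays of highest Saa1 15 were higher and 15 lower, with a median of 0.00. Those arrays are all controls and were chosen by Saa1, a member of this list. Leaving them out was thus bound to raise the difference of Saa1, and it is no test of the list. Saa1, the serum amyloid that inflammation raises, read 11.42, 10.50, 10.40 and 9.03 on the H1047R arrays, 10.20, 11.21, 9.12, 10.46 and 9.49 on the E545K arrays, 14.19, 14.19, 9.45 and 9.96 on the 3-month controls and 10.74, 10.49, 13.95, 10.63 and 10.14 on the 6-month controls. The difference of -1.32 ± 0.63 thus came from 3 control arrays over 12, and without them it was -0.03. Serpina3m, a protease inhibitor of the acute phase, ran from 8.55 to 10.55 on the mutant arrays and from 9.45 to 11.83 on the controls. Of the mutant arrays 6 lay below every control. The difference was -0.83 ± 0.31, made of -0.22 against the 3-month and -1.32 against the 6-month controls. Without the arrays of high muscle markers the pooled difference was -1.32. Fgb (fibrinogen beta) and Apcs (serum amyloid P) differed by -0.53 ± 0.19 and -0.47 ± 0.24, the latter by -0.24 without the 3 arrays of highest Saa1. Clock genes had a median of 0.06 that was 0.32 against the 3-month and -0.11 against the 6-month controls, and -0.08 without the arrays of highest Saa1. Noct (nocturnin), a phosphatase with a strong daily rhythm, differed by -0.91 ± 0.43, which was -0.18 and -1.49 against the controls of 3 and 6 months.

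Of the 34 lists 23 had a median within 0.1 of 0 and 32 within 0.25. Apart from the skeletal muscle markers, whose median was -0.87 (12 of 15 lower), that of the fat markers was furthest from 0, at 0.34 (6 of 7 higher). Without H1047R array 3 and E545K array 4, which hold the adrenal and fat transcripts, the fat median was -0.06 (3 higher, 4 lower). The muscle median was -2.41 against the 3-month controls and 0.26 against those of 6 months, following the arrays named above: Acta1 (skeletal actin) was over 8 on H1047R array 2 (11.27) and 3-month controls 2 to 4 (8.60, 8.62 and 12.21). Markers of macrophages, endothelium, bile ducts and stellate cells had medians of 0.02, -0.00, -0.00 and 0.10, with none called. For H1047R minus E545K the medians of these lists were 0.31, 0.17, 0.11 and 0.35, beside 0.01 for all genes tested. Those of the NRF2 and ATF4 lists given below were 0.24 and 0.28. Ribosomal protein genes had 11 of 36 higher and a median of -0.12, which was 0.03 against the 3-month and -0.20 against the 6-month controls. Interferon response genes had 14 of 22 higher and a median of 0.04. Targets of the oxidative stress factor NRF2 had 15 of 20 higher and a median of 0.06, and genes of ATF4 and the unfolded protein response 8 of 25 higher and a median of -0.05, or -0.16 without the muscle arrays and -0.21 without the adrenal and fat arrays. Mature hepatocyte genes had a median of -0.03 (10 of 23 higher), respiratory chain subunits -0.05 (9 of 24 higher) and early genes of ERK signalling -0.07 (5 of 15 higher), and no member of these lists was called.

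**Figure D4:**
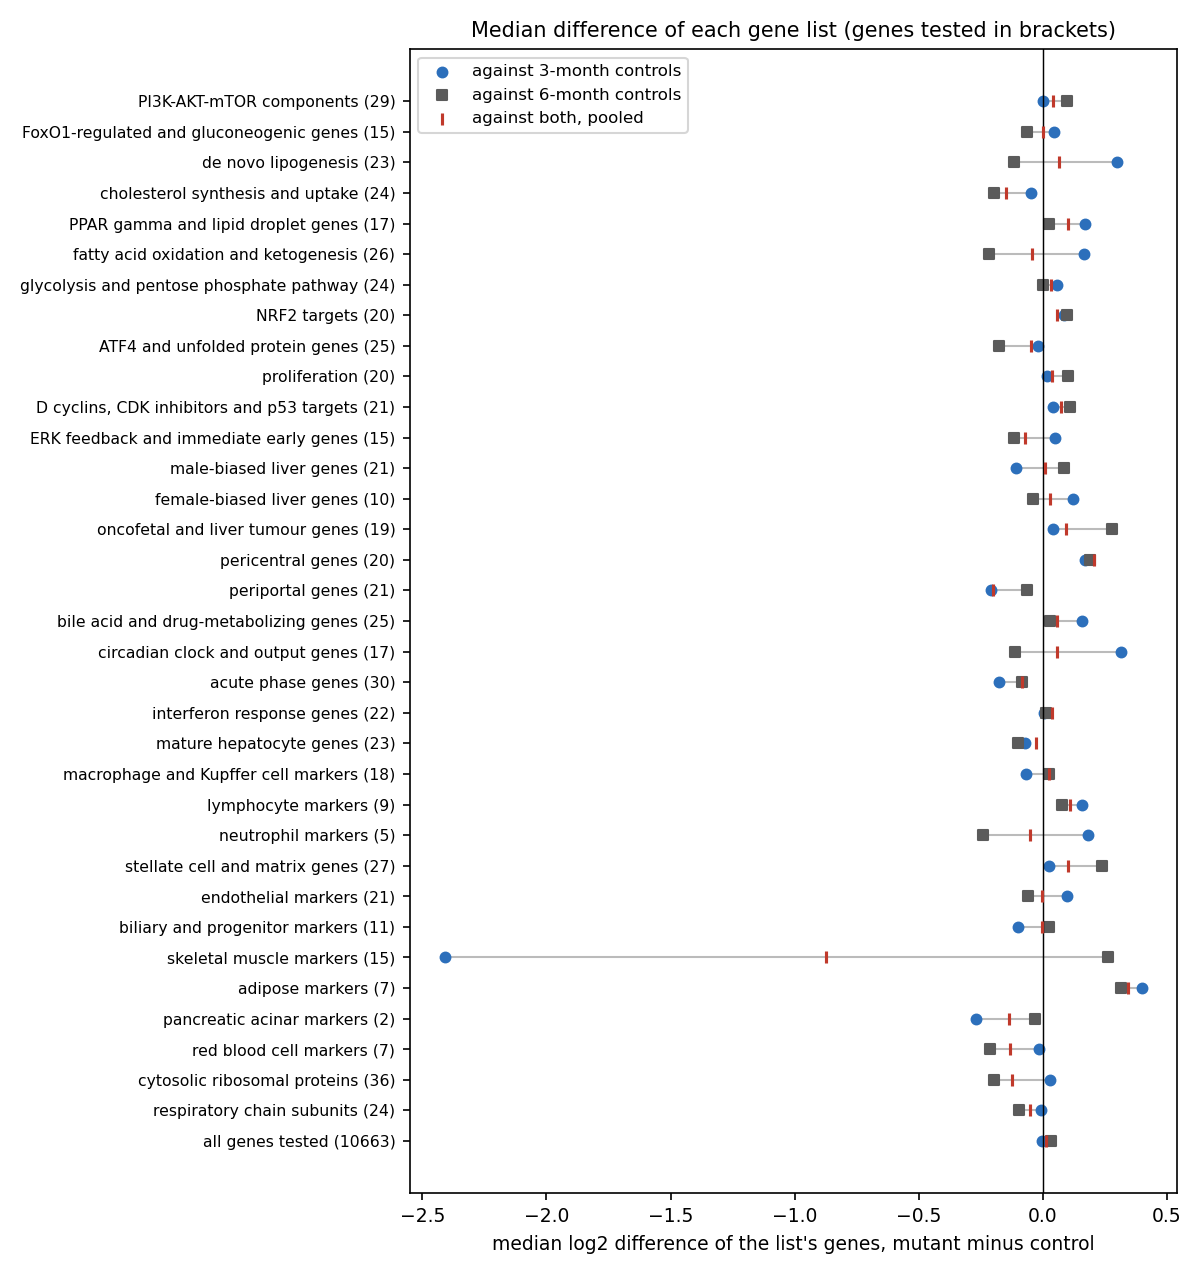
For each gene list (genes tested in brackets) the marks give the median log2 difference of the mutant arrays against 3-month controls (circles), 6-month controls (squares) and both pooled (red ticks). All medians but those of the muscle (-0.87) and fat markers (0.34) lie within 0.25 of 0 in the pooled comparison. Lipogenesis, fatty acid oxidation, ribosomal protein and clock genes, among others, lie on opposite sides of 0 for the 2 control ages.

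Genes on which both mutations and both control ages concurred were listed apart. With each mutation set against each control age, 12 genes were at least 1.5-fold higher in all 4 pairings (0.113%) and 2 at least 1.5-fold lower (0.0188%). Differences of all sizes had 1 sign in all 4 pairings for 1575 genes on the higher side (14.8%) and 1266 on the lower (11.9%). The pairings share arrays, so this is a description with no test, and none of the 14 genes passed in the pooled comparison. The lower ones were Saa1 and Saa2, which share the 3 control arrays described above. The higher ones were Tmem25, G0s2, Akr1b7, Inhbe, Cfd, Tbx3, Rarres1, Nxpe2, Abcb1b, Clstn3, Snhg11 and Prkar2b. Akr1b7 read 9.66 on H1047R array 3 and 9.93 on E545K array 4 and at most 5.16 on the others, and Prkar2b, a regulatory subunit of protein kinase A, read 8.32 and 8.45 there and at most 5.45 on the others. Without these 2 arrays of adrenal and fat transcripts, 9 of the 14 stayed at 1.5-fold or more in all 4 pairings, and G0s2, Akr1b7, Cfd, Abcb1b and Prkar2b did not.

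Among those that stayed, Tmem25, a membrane protein, ran from 10.15 to 12.23 on the mutant arrays (median 11.78) and from 9.37 to 11.37 on the controls (median 10.86), with a difference of 0.86 ± 0.28 (limma adjusted p = 0.747). Clstn3, a calsyntenin linked in mice to lipid handling of fat cells, ran from 9.32 to 10.50 (median 10.03) against 8.001 to 10.09 (median 9.23), a difference of 0.91 ± 0.26. Nxpe2 lay between 7.42 and 8.49 on the mutant arrays and spread from 5.61 to 8.26 on the controls. Tbx3, a Wnt-responsive transcription factor of pericentral hepatocytes, differed by 0.93 ± 0.43, Rarres1 by 1.04 ± 0.40 and Inhbe, the hepatocyte subunit of activin E, by 0.85 ± 0.45. Without 6-month control array 3 alone Tbx3 differed by 0.58 and Inhbe by 0.49, and without the 3 arrays of highest Saa1, to which it belongs, by 0.37 and 0.19. Those 3 arrays also moved Clstn3, to 0.60, and without the 6 arrays of high muscle markers Nxpe2 differed by 0.48 instead of 0.90 and Rarres1 by 0.68. For each of these genes the mutant and the control arrays overlapped.

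Whether the 2 mutations differed was tested in the same 4-group fit, where the controls cancel. Between H1047R and E545K limma called 0 genes (0%), with 428 at an unadjusted p under 0.05 (4.01%; 248 higher with H1047R, 2.33%, and 180 lower, 1.69%), a lowest adjusted p of 0.87 and 44 differences of at least 2-fold (0.413%). The mutant arrays of high muscle markers were all of H1047R, and the 15 skeletal muscle markers had a median difference of 1.62 between the mutations. Their share of the 44 was not counted. Cbr3, a carbonyl reductase under NRF2, had the smallest p: it read 7.86, 6.83, 6.31 and 5.50 on the H1047R arrays and 4.97, 4.78, 5.00, 5.32 and 4.94 on the E545K arrays. The H1047R arrays were all above the E545K arrays, and the difference was 1.62 ± 0.32 (limma adjusted p = 0.87). Cyp2a4, a steroid hydroxylase with higher levels in female mice, read 5.58, 5.88, 5.85 and 6.07 with H1047R and 8.02, 6.87, 7.91, 6.28 and 7.53 with E545K. Its difference between the mutations was -1.48 ± 0.36, and its near twin Cyp2a5 differed by -0.08; probes of this pair may read both genes. Hipk2, Ankrd1, Tmsb10 and Ptges3l were higher with H1047R by 0.51 to 0.82, and Prkar2a, Frrs1, Hmgb1 and Txnrd3 were lower by 0.49 to 0.84 (differences from -0.84 to -0.49).

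Between the control ages the genes of smallest p were Ppat, Rbm15, Rgs16, St3gal5 and Ripk4 on the side of 6 months and Mrnip, Gtf2ird1, Adck5, Fam83f and Sat2 on that of 3 months, none of them called. Rgs16, a regulator of G protein signals, read 5.52, 4.76, 5.23 and 5.59 on the 3-month and 10.63, 9.50, 8.14, 8.30 and 10.09 on the 6-month controls, a difference of 4.05 ± 0.88. The mutant arrays of 3 months spread across that gap, from 6.10 to 11.01. The pooled difference of Rgs16 was 0.89 ± 0.86, made of 3.14 against the controls of 3 months and -0.91 against those of 6 months. Mrnip, a protein of DNA break repair, differed by -1.27 ± 0.21 between the ages, and its mutant values from 7.78 to 8.63 lay inside the control range of 6.90 to 8.64.

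Genes that mark the established tumours of this series were read in the early livers with no array in common between list and readout. The 100 genes most raised in the E545K tumours of 5 months against the 6-month controls, by a median of 3.21, had a median of 0.08 in the mutant arrays against the 3-month controls, with 61 higher and 39 lower, beside -0.00 and 49.6% higher for all genes. For H1047R and E545K apart, the median of the raised genes was 0.19 and -0.02. The 100 most lowered genes had a median of -0.03 (46 higher, 54 lower), or -0.04 for H1047R and 0.03 for E545K. With the control ages exchanged, the raised genes had a median of 0.02 (52 higher, 48 lower) and the lowered genes 0.30 (79 higher, 21 lower), beside 0.03 and 54.5% higher for all genes. The raised median was then 0.01 for H1047R and -0.15 for E545K, and the lowered median 0.29 and 0.23. In this exchange, genes higher at 3 than at 6 months can enter the lowered list. They would also read higher on the 3-month mutant arrays than on 6-month controls. Age and mutation cannot be told apart in that readout, and the part of age was not tested. Lcn2 (lipocalin 2), raised by 7.95 in the tumours, differed by -1.48 from the 3-month controls, -0.38 from those of 6 months and -0.87 from both; it ran from 5.59 to 7.58 on the mutant arrays and from 5.17 to 10.53 on the 3-month controls. Cpe (carboxypeptidase E), raised by 6.66, differed by 0.23 from the 3-month controls, and Hsd3b5, a male-specific steroid dehydrogenase lowered in the tumours (difference -7.28), stayed between 11.41 and 12.08 on the mutant arrays and differed by -0.23.

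Of the first 5 principal components of the 18 arrays, computed without labels, 1 had scores whose means differed between the arms, with overlap. Component 4, with 6.94% of the variance, had a mean score of -7.03 ± 7.81 on the mutant arrays and 7.03 ± 10.2 on the controls (SD, n = 9 each), and the difference of -14.1 had an exact permutation p of 0.00613 over 48620 assignments and 0.0307 after adjustment over 5 components. Its score was below 0 on 8 of 9 mutant arrays, with H1047R array 2 at 11.2, and above 0 on 6 of 9 controls. The call was lost with the authors' processed values (difference -7.47, exact permutation adjusted p = 0.161), without background correction (-7.06, 0.203) and with the 1000 genes of highest variance (-4.80, 0.401). The genes with the largest loadings were skeletal muscle genes led by Myl1, Tnni2 and Acta1, together with Saa1, Saa2 and, with opposite sign, G0s2. Without the 6 arrays of high muscle markers the component most like it, with a correlation of loadings of only 0.35, differed by -11.2 (exact permutation p = 0.112, unadjusted). Without the 3 arrays of highest Saa1 the most similar component (correlation 0.773) differed by -13.0 (exact permutation p = 0.0342, unadjusted). With both sets of arrays left out, 7 mutant and 3 control arrays remained. The most similar component, with a correlation of only 0.384, then differed by -22.7 (exact permutation p = 0.00833, unadjusted). That is the lowest p that the 120 assignments allow. The scores of components 1, 2, 3 and 5 had adjusted p between 0.839 and 0.945.

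**Figure D5:**
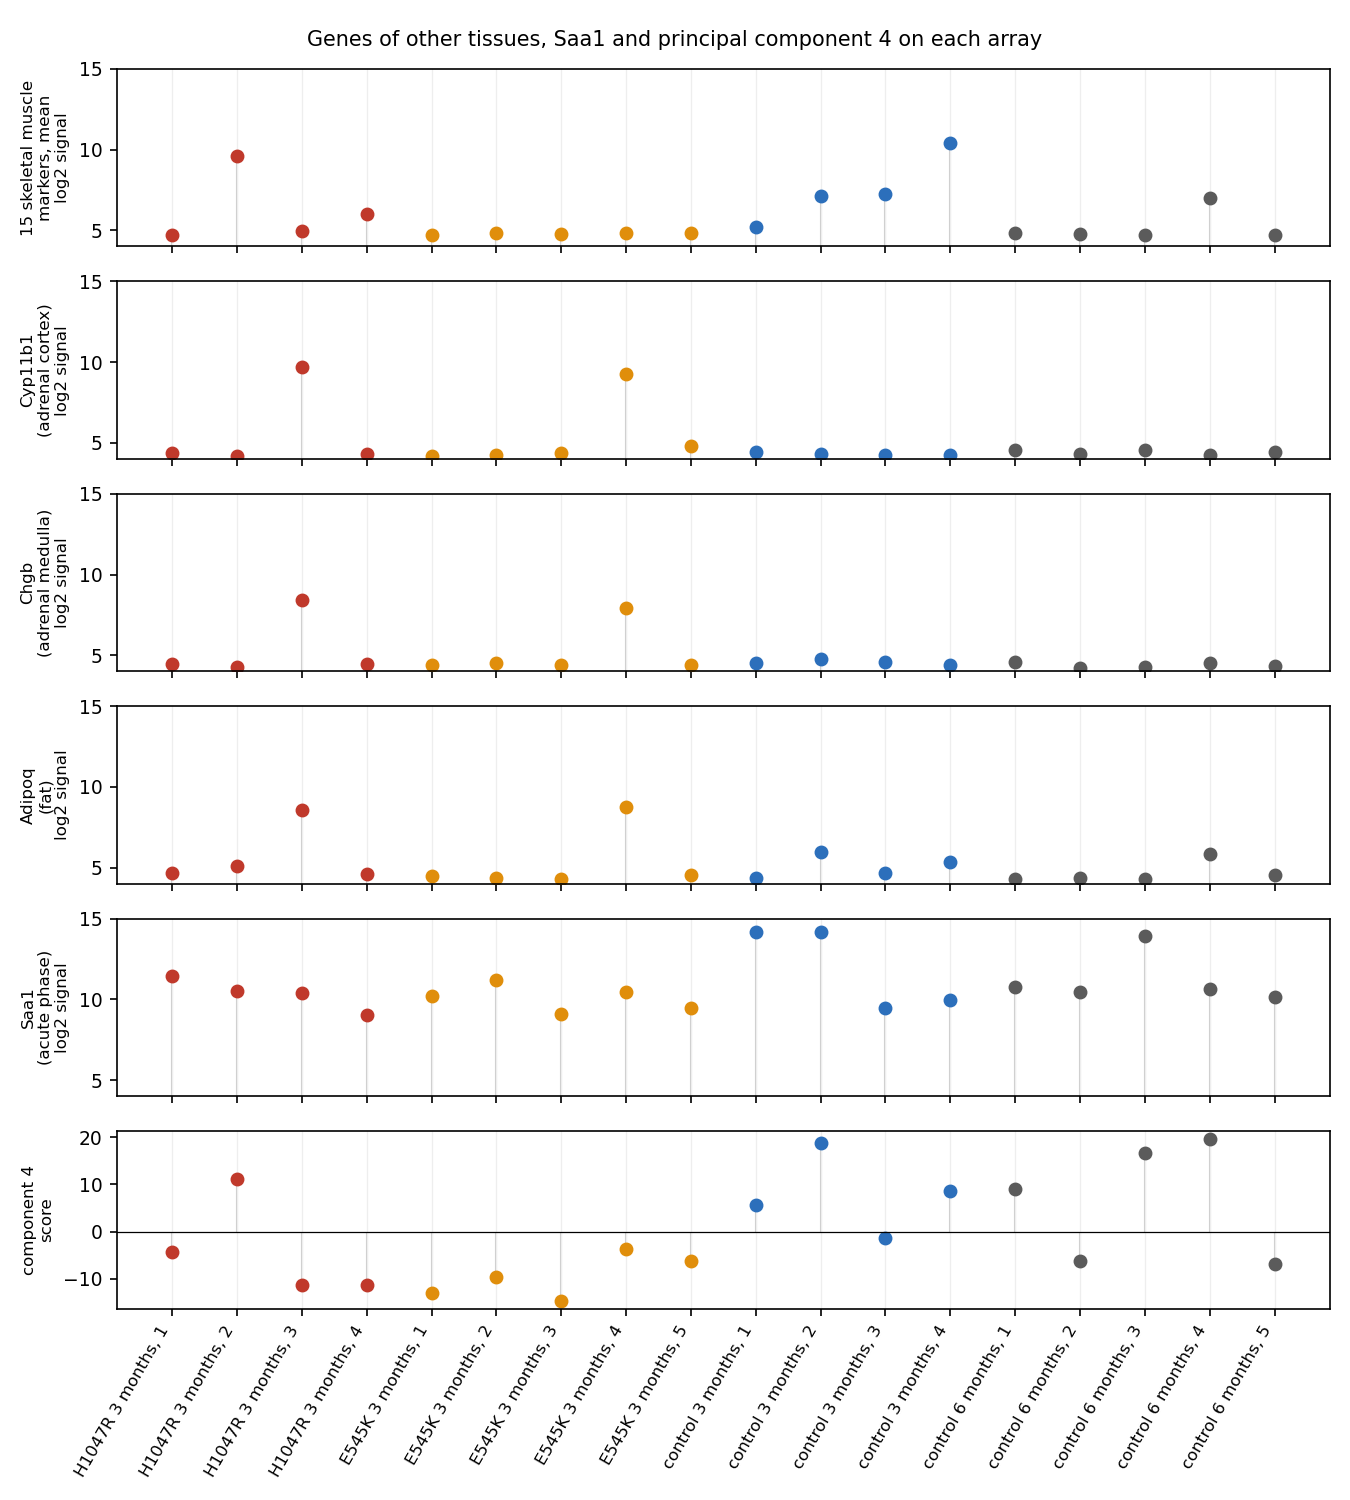
Each column is 1 of the 18 arrays, coloured by group; the upper 5 panels give log2 signals on an axis from 4 to 15 and the lowest panel the score on principal component 4. Muscle markers are high on 6 arrays of which 4 are controls, Cyp11b1, Chgb and Adipoq on H1047R array 3 and E545K array 4, and Saa1 on 3 controls; component 4 is above 0 on 6 controls and 1 mutant array.

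The authors' deposited tables, which hold no comparison of the pooled groups, list 0 of 45281 probes at an adjusted p under 0.05 for H1047R at 3 months against the 3-month controls (lowest adjusted p 0.186) and 0 for E545K (lowest 0.816). At an unadjusted p under 0.05 the authors' deposited tables hold 2370 of 45281 probes for H1047R and 2149 of 45281 for E545K. For the 6-month against the 3-month controls they hold 4471 of 45281, with 0 at an adjusted p under 0.05.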

How the data were processed

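The non-normalized intensities with a detection p-value for each probe and array, the processed intensities on a linear scale, and the log2 differences and p-values of comparisons are as the authors deposited them, per the file headers (Illumina arrays, per the labels' protocols). Intensities of all 25 arrays were background-corrected and quantile-normalized by the neqc function (limma 3.58.1, R version 4.3.3, offset 16), which can raise or flatten differences near background. Probes with detection p under 0.05 on at least 4 of the 18 arrays were kept, and the brightest of 15297 with a symbol stood for each of 10663 genes; symbols came from Entrez identifiers for 33509 of 33778 named probes, 658 of them updated to RefSeq. lmFit and eBayes of limma gave two-sided tests over 2 pooled groups, and over 4 group means for the other contrasts, with Benjamini-Hochberg adjustment over all genes. Scores of principal components were compared by exact permutation. Scripts were tested on simulated data.

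Genes named are the 10 of smallest p on each side of the pooled comparison, up to 5 on each side of the other contrasts, up to 4 of smallest p in each list described, and Pik3ca; others were chosen after their values were seen, as were the adrenal and fat lists and the alternatives that leave out arrays of high muscle, Saa1 or Cyp11a1 signal or, for genes of the 4 pairings, each array in turn. Members and lists were chosen with earlier results of these data known. Predicted gene models (333) were tested and not named, and a few genes that the rule selected are not reported here. No 2 arrays held identical values; the highest correlation of an array with another lay between 0.971 and 0.989.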

Additional observations from a re-analysis of the deposited data

Results flagged for a closer look

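Of 174 sets of 9 values looked at (each named gene and each principal component on the mutant and on the control arrays), 19 held a lone array, far from the other 8 against the range of the 9. Single sets of independent values pass this mark by chance about 1 time in 20, but these genes were mostly chosen by p and vary together, so that rate is no benchmark for the 19. H1047R array 1 stood alone among the mutant arrays with high Apoa4 (13.54, next 10.52), Pnpla3 (9.861, next 7.236) and Igfbp1 (6.182, next 4.922). H1047R array 2 stood alone with the muscle genes Mb (9.969), Tnni2 (11.62) and Acta1 (11.27) and on component 4 (11.16). E545K array 4 was alone with high Pik3ca (5.471) and Sc5d (5.189) and with low Snhg11 (8.274). Among the controls, 6-month array 3 was alone with high Igfbp1 (9.199), Cldn14 (6.724), Crybg3 (7.496) and Crem (8.827). The 6-month array 2 was alone with high Pnpla3 (9.623, next 6.623) and Pgd (11.4), 6-month array 1 with low Apoa4 (10.49, next 11.3), 6-month array 5 with low Robo1 (6.767), and 3-month array 1 with high Akr1c18 (6.306, next 4.64).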

How the results depend on the processing

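In the pooled comparison, 34 of 37 alternatives called 0 genes, with a lowest adjusted p of 0.0613 and 471 to 1508 genes at an unadjusted p under 0.05. In the other 3, 1 gene was called: without H1047R replicate 1 (Apoa4, -1.47), with E545K only (Apoa4, -1.58) and without 3-month controls 1 and 2 (lowest adjusted p 0.0287). Leaving out each array in turn gave 0 to 1 genes, 0 to 1 for H1047R against E545K (Cbr3 without H1047R replicate 4) and 0 to 5 for control age (5 without 6-month control 1, 3 without 6-month control 2). Replicate numbers did not pair the arrays: same-numbered arrays of different groups had a median correlation of -0.0448 (7 of 25 over 0.1), and with the replicate block 0 genes were called in each comparison, with 632, 583 and 1273 at an unadjusted p under 0.05. Of 2952 values of 82 named genes 2941 kept direction and side of the threshold. Signs reversed for Pik3ca without 6-month control 2 (0.0133) or 3 (0.00384), where leaving out single arrays gave -0.149 to 0.0133, and with 3-month controls only (0.207), for Fbp1 (0.0887), Mlxipl (-0.0329) and Bbc3 (-0.352) with 3-month controls only, and for Mb (0.0739), Tnni2 (0.128) and Acta1 (0.229) with 6-month controls only. The difference on component 4 lost its call with the authors' processed values (-7.47, adjusted p = 0.161), without background correction (-7.06, 0.203), with 1000 genes of highest variance (-4.80, 0.401) and, for the component most like it, without arrays of high muscle markers (-11.2, unadjusted exact permutation p = 0.112); component 2 reversed with 1000 genes (4.29). The cause was not tested. Genes near background, such as Pik3ca and Amn, are limited by signal over background.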

Other observations

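H1047R array 3 and E545K array 4 shared 10 genes that were higher on both by more than 1 on the log2 scale than on any of the other 16 arrays. On these 2 arrays Cyp21a1, the 21-hydroxylase of the adrenal cortex, read 7.97 and 6.68, against at most 4.92 on the others. Star, which brings cholesterol into mitochondria for steroid synthesis, read 5.85 and 5.54 there and at most 4.53 elsewhere. Th, the first enzyme of catecholamine synthesis, read 6.26 and 5.57, and Chga (chromogranin A) 7.6 and 6.5, with at most 4.46 and 4.56 on the others. Lep (leptin) read 6.68 and 6.73 there and at most 5.47 elsewhere. Without these 2 arrays, 11 genes were at least 1.5-fold higher and 5 at least 1.5-fold lower in all 4 pairings of mutation and control age.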
